A study of Homo sapiens with 4 samples.

Results

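The 8 genes described here regulate the sterol regulatory element-binding proteins (SREBPs) or move lipoprotein cholesterol inside the cell. They are SREBF1, SREBF2, SCAP, MBTPS1, INSIG1, INSIG2, NPC1 and STARD4, out of 15870 named genes on the array. Each was found by its symbol, and each was measured by 1 probe set. Total RNA came from MDA-MB-231, an established mesenchymal-like human breast carcinoma line, grown with fetal bovine serum, which supplies lipoproteins. On 2 arrays the cells were transfected with shDROSHA, a short hairpin RNA against DROSHA, and on 2 they were the controls, labelled shNC and called mock-transfected in the design text. The labels call the replicates biological and give no hairpin sequence, clone number or time after transfection. DROSHA encodes the nuclease that excises microRNA precursors from their primary transcripts, and the comparison asks which mRNAs differ when it is depleted.

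SREBPs are transcription factors made as precursors in the membrane of the endoplasmic reticulum. When membrane cholesterol is low, the escort protein SCAP carries them to the Golgi, where the site-1 protease MBTPS1 and then a site-2 protease release the active fragment, which switches on genes of sterol and fatty acid synthesis and of LDL uptake. When sterols are plentiful, INSIG1 and INSIG2 hold SCAP back, and INSIG1 is itself an SREBP target, which closes a feedback loop. NPC1 lets cholesterol from endocytosed LDL out of lysosomes, and STARD4 carries sterol through the cytosol.

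The values are log2 signals, so a difference of 1 is a 2-fold change, and every difference is shDROSHA minus shNC. DROSHA itself was 8.71 and 8.74 in the shDROSHA arrays against 9.66 and 9.76 in the shNC arrays, a 1.98-fold lower level (log2 difference -0.99, SE 0.073, limma adjusted p = 3.89e-06). A probe set was called at an adjusted p under 0.05 in limma with a prior variance that follows signal level, and rose and fell are used only of called genes. By this rule 1192 of 18603 probe sets (6.41%) were called, 581 higher (3.12%) and 611 lower (3.28%). Leaving out shNC replicate 1 gave 535 calls, leaving out shNC replicate 2 gave 748, and leaving out shDROSHA replicate 1 gave 1949. A fit without 1 array takes the spread of the group with a single array from the other group. Its calls and adjusted p are therefore not comparable with those of all 4 arrays. With each array centred on its median the split was 747 higher and 448 lower. With 1 constant prior variance, limma called 1 probe set (0.00538%, with 2774 at unadjusted p under 0.05), and DROSHA, all 8 members and all genes of the lists below missed the threshold, so each call here depends on that choice. With 2 arrays a group, an exact two-sided permutation test of 1 gene cannot give a p below 0.333. In bulk RNA, a lower level in every cell and fewer cells with the transcript cannot be told apart. The 7 markers fixed for this line, such as VIM and CD44, had mean log2 signals of 9.52 to 12.3, and AXL rose (0.33) while CAV1 (-0.23) and MSN (-0.22) fell. Of 4 luminal and epithelial genes listed as low in it, KRT18 nevertheless had a mean above 11. The 14 measured markers of fibroblasts, blood, endothelium, hepatocytes and adipocytes had means of 4.41 to 8.31, and limma called 0 of them (0 at unadjusted p under 0.05).

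INSIG1 rose 1.75-fold in the shDROSHA cells and was the only one of the 8 members that passed the threshold. NPC1, SREBF2, STARD4 and SREBF1 were higher by log2 differences of 0.26, 0.23, 0.19 and 0.13, and SCAP, MBTPS1 and INSIG2 were lower (-0.28, -0.22 and -0.18), all 7 without passing. The share called, 1 of 8 or 12.5%, rests on a single gene and is read against 6.41% of all probe sets. The groups did not overlap in 6 of the 8, against 47.8% of all probe sets, and 5 of the 8 had an unadjusted p under 0.05, against 19.3%. The median difference of the members was 0.16, against 0.001 over all probe sets. All 8 lay above the median signal of the array. The direction of each member's difference was kept in all 14 alternative settings, but most of these could not change it. Only quantile normalization again, median centring and leaving out an array altered the differences themselves. Where the groups do not overlap, leaving out 1 array cannot reverse the direction.

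**Figure D1:**
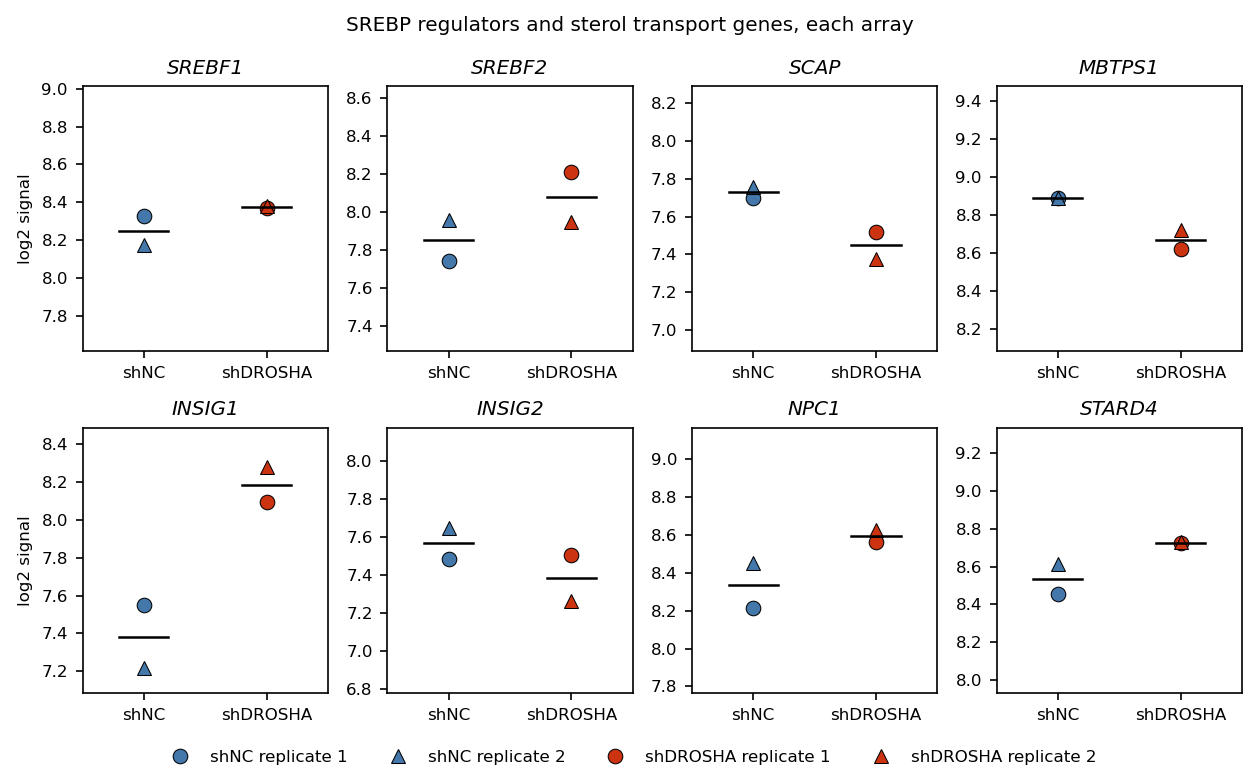
Log2 signal of each member (vertical axis, the same span of log2 units in every panel) in the 2 shNC arrays (blue) and the 2 shDROSHA arrays (red), with circles for replicate 1, triangles for replicate 2 and a bar at each group mean. INSIG1 has the widest gap between the groups (7.22 and 7.55 against 8.09 and 8.28), and the groups overlap in SREBF2 and INSIG2.

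SREBF1 and SREBF2 encode the SREBPs themselves. SREBF1, whose protein mainly drives fatty acid synthesis, had log2 signals of 8.37 and 8.38 in shDROSHA and 8.33 and 8.17 in shNC. Both shDROSHA arrays lay above both controls, by a gap of only 0.04. The difference was 0.13 (SE 0.093, limma adjusted p = 0.526), with a 95% interval from -0.07 to 0.33, and leaving out shNC replicate 2 gave 0.05, against 0.20 when shNC replicate 1 was left out. SREBF2, whose protein mainly drives cholesterol synthesis and LDL uptake, had log2 signals of 8.21 and 7.95 in shDROSHA and 7.74 and 7.96 in shNC. Its groups overlapped, because shDROSHA replicate 2 fell within the range of the controls. The difference was 0.23 (SE 0.116, limma adjusted p = 0.309), with an interval from -0.02 to 0.48. It ranged with the arrays used, from 0.10 without shDROSHA replicate 1 and 0.12 without shNC replicate 1 to 0.36 without shDROSHA replicate 2. The intervals reach 1.25-fold for SREBF1 and 1.39-fold for SREBF2 and do not show that either mRNA was unchanged. The probe sets do not tell apart the SREBP-1a and SREBP-1c transcripts of SREBF1.

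Both SREBF genes carry a microRNA of the miR-33 family in an intron, whose primary transcript is a substrate of DROSHA. RefSeq (GRCh38.p14) places miR-33a inside SREBF2 at chr22:41900949-41900969, plus strand, and miR-33b inside SREBF1 at chr17:17813897-17813916, minus strand. The 5p strands are shown because host and microRNA share 1 transcript, with the seed, bases 2 to 8, in capitals:
hsa-miR-33a-5p: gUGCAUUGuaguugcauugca
hsa-miR-33b-5p: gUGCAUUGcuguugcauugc
The seed is the same in both. Over the 20 positions they share, counted from the 5′ end of miR-33a, they differ by U9C and A10U, and miR-33a is 1 base longer. ABCA1, a cholesterol exporter, and NPC1 are known targets of the family. ABCA1 fell (7.10 and 7.21 against 7.76 and 7.61, a difference of -0.53, SE 0.118, limma adjusted p = 0.0146), and the call was lost without shNC replicate 1 (-0.46, adjusted p = 0.165). NPC1 was higher by 0.26 without passing. MicroRNA levels were not analysed here, and whether miR-33 bears on either value was not tested.

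SCAP and MBTPS1, which escort and first cut the precursors, were both lower without passing. SCAP had log2 signals of 7.52 and 7.38 in shDROSHA and 7.70 and 7.76 in shNC. Both shDROSHA arrays lay below both controls. The difference was -0.28 (SE 0.111, limma adjusted p = 0.173), with an interval from -0.52 to -0.04. MBTPS1 had log2 signals of 8.62 and 8.72 in shDROSHA and 8.89 and 8.89 in shNC. Its groups were also apart, and its 2 controls differed by only 0.001. The difference was -0.22 (SE 0.081, limma adjusted p = 0.132), with an interval from -0.40 to -0.05. The intervals reach levels 1.43-fold lower for SCAP and 1.32-fold lower for MBTPS1.

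Most of the other measured genes around SREBP transport and cleavage showed small differences. The site-2 protease, MBTPS2, was not among the measured genes. Of 12 measured genes, 0 rose and 1 fell, with 1 higher and 4 lower at unadjusted p under 0.05 in limma. The median difference was -0.07. The share called, 8.33%, was near the 6.41% of all probe sets. SEC24D, a cargo-binding subunit of the COPII coat that carries SCAP out of the endoplasmic reticulum, fell (8.51 and 8.49 against 8.84 and 8.88, a difference of -0.36, limma adjusted p = 0.0165). The call was lost without shNC replicate 1 (-0.38, adjusted p = 0.0799) and without shNC replicate 2 (-0.34, adjusted p = 0.103). PAQR3, a Golgi protein that anchors SCAP, was lower by a log2 difference of -0.23 (limma adjusted p = 0.0552). The difference was -0.28 without shDROSHA replicate 1. PAQR3 was called without the dimmer probe sets (limma adjusted p = 0.0457 for the filter at the lower quartile and 0.0351 at the median). It was also called after quantile normalization again (0.0357), with the replicate number as a block (0.0325) and with 1 probe set per gene (0.0461). The COPII genes SEC23A, a coat subunit, and SAR1A, the GTPase that starts the coat, differed by -0.12 and 0.15 without passing. SAR1A was higher by 0.19 without shDROSHA replicate 1. It was called with each array centred on its median (0.18, limma adjusted p = 0.0451) and with the replicate number as a block (0.15, adjusted p = 0.0428). The count of calls in this list was 4 without shDROSHA replicate 1, and 0 without shNC replicate 1 or without shNC replicate 2.

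Of the INSIG genes, which encode the sterol-dependent brakes on SCAP, INSIG1 rose and INSIG2 was lower without passing. INSIG1 had log2 signals of 8.09 and 8.28 in shDROSHA and 7.55 and 7.22 in shNC. Both shDROSHA arrays lay above both controls, by a gap of 0.54 against spreads of 0.19 and 0.33 within the groups. The difference was 0.80 (8.19 ± 0.132 against 7.38 ± 0.236, mean ± SD, n = 2 each, SE 0.125, limma adjusted p = 0.00165), with an interval from 1.45-fold to 2.10-fold. It was 0.64 without shNC replicate 2 (adjusted p = 0.00943), the lowest value over the 4 arrays left out, and 0.97 without shNC replicate 1. With a constant prior variance the adjusted p was 0.172 in limma. Its size was larger than that of 99.4% of the probe sets in the same bin, the third of 5 equal bins of signal, of which 4.7% were called.

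INSIG2, which is not driven by SREBPs in the way INSIG1 is, had log2 signals of 7.51 and 7.26 in shDROSHA and 7.49 and 7.65 in shNC. Its groups overlapped, since shDROSHA replicate 1 lay between the controls. The difference was -0.18 (SE 0.124, limma adjusted p = 0.474), with an interval from -0.45 to 0.08. It ranged from -0.06 without shDROSHA replicate 2 and -0.10 without shNC replicate 2 to -0.31 without shDROSHA replicate 1.

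Differences of log2 signals within an array, which cancel any scaling of that array, were taken for 5 pairs chosen after the values were seen. INSIG1 minus INSIG2 was 0.59 and 1.02 in shDROSHA and 0.06 and -0.44 in shNC, a shift of 0.99 (1.98-fold). INSIG1 minus SCAP, a brake against the protein it holds, was 0.57 and 0.90 in shDROSHA and -0.15 and -0.54 in shNC, a shift of 1.08 (2.12-fold). In both pairs the groups did not overlap, and the exact two-sided permutation p was 0.333, the smallest possible, and 0.417 adjusted over the 5 pairs. SREBF2 minus INSIG1 shifted by -0.57 and NPC1 minus STARD4 by 0.07, each with the same exact p of 0.333. SREBF2 minus SREBF1 shifted by 0.10 with overlapping groups and an exact permutation p of 0.667, also 0.667 after adjustment.

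The genes whose 4 array values followed INSIG1 most closely, by root mean square difference after subtracting each gene's mean, were BST1, FCGR1BP and NHERF4. BST1, a surface ectoenzyme, lay at a root mean square difference of 0.072 log2 units and rose by 0.83 (limma adjusted p = 0.00398). FCGR1BP, a pseudogene of an Fc receptor, lay at 0.095 and rose by 0.81 (limma adjusted p = 0.0244). It was a very dim probe set, at 4.57 and 4.74 in shDROSHA and 3.88 and 3.82 in shNC, so its values can reflect background. NHERF4, a PDZ scaffold protein, lay at 0.097 and was higher by 0.64 without passing (limma adjusted p = 0.0706). Its probe set was also dim, at 4.71 and 4.94 against 4.27 and 4.09. With 4 arrays many genes lie close to any profile, so this is only a description.

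The proteins that degrade INSIG, HMG-CoA reductase, squalene epoxidase or nuclear SREBP showed no called change. Of 10 measured genes limma called 0, against 6.41% of all probe sets, and the median was -0.03. At unadjusted p under 0.05 there were 2, both higher, and 1 with the constant prior variance. FBXW7, which marks nuclear SREBP for degradation, was 7.72 and 7.75 against 7.39 and 7.46, a difference of 0.31 (limma adjusted p = 0.119). UBE2J2, a ubiquitin-conjugating enzyme of the endoplasmic reticulum, was higher by 0.27 (limma adjusted p = 0.182), and by 0.39 without shDROSHA replicate 1. ERLIN2, a membrane scaffold of that degradation, and VCP, the ATPase that extracts its substrates, differed by -0.18 and -0.08 without passing.

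NPC1 and STARD4, which move cholesterol after uptake, were both higher without passing. NPC1 had log2 signals of 8.56 and 8.63 in shDROSHA and 8.22 and 8.45 in shNC. Both shDROSHA arrays lay above both controls, by a gap of 0.11. The difference was 0.26 (SE 0.097, limma adjusted p = 0.14), with an interval from 0.05 to 0.47, and leaving out shNC replicate 1 gave 0.14, against 0.38 when shNC replicate 2 was left out. STARD4, a sterol-regulated carrier, had log2 signals of 8.72 and 8.73 in shDROSHA and 8.46 and 8.62 in shNC. The groups did not overlap, and the shDROSHA arrays differed from each other by only 0.004. The difference was 0.19 (SE 0.087, limma adjusted p = 0.25), with an interval from 0.003 to 0.38, and it was 0.11 without shNC replicate 1. The intervals of both genes exclude 0, but they are not adjusted for the number of probe sets, and neither adjusted p passed. The intervals reach 1.38-fold for NPC1 and 1.30-fold for STARD4.

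**Figure D2:**
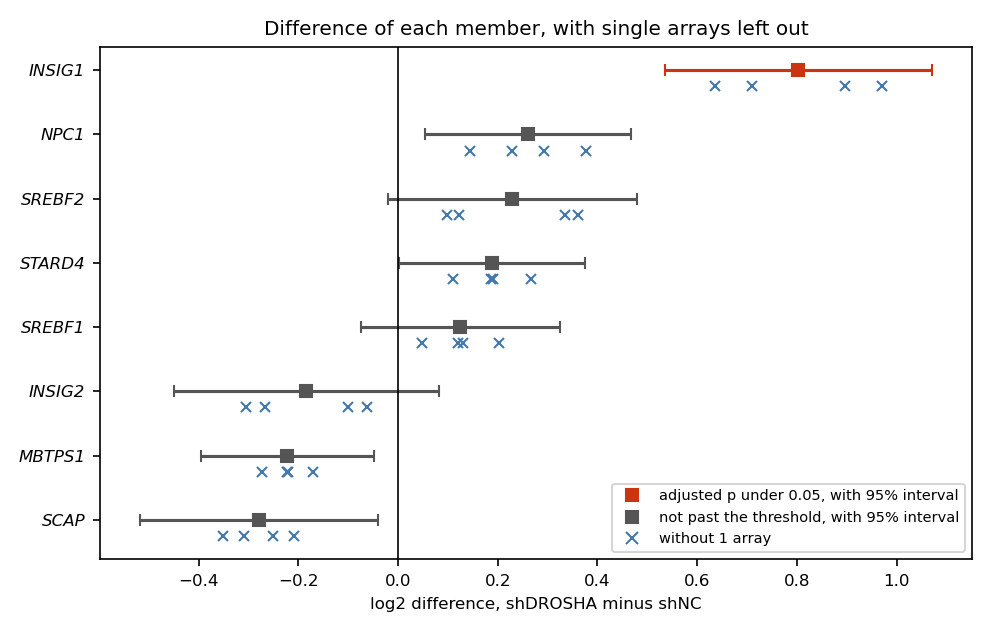
Log2 difference of each member, shDROSHA minus shNC (horizontal axis), with squares for the fitted difference, bars for the 95% interval before adjustment for the number of probe sets, and crosses for the difference without 1 of the 4 arrays. Only INSIG1 (red, 0.80) passed the adjusted threshold. The crosses of every member stay on 1 side of 0, which is fixed in advance for members whose groups do not overlap.

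Around NPC1, the measured genes of lipoprotein uptake and lysosomal release went in both directions. Of 11 genes 1 rose and 2 fell, and the median was -0.12. That is 27.3% called, against 6.41% of all probe sets. SCARB1, the HDL receptor, rose by 0.35 (limma adjusted p = 0.0445). That call was lost without shDROSHA replicate 1 (0.27, adjusted p = 0.151), without shNC replicate 1 (0.34, adjusted p = 0.207) and without shNC replicate 2 (0.37, adjusted p = 0.122). VLDLR, the very low density lipoprotein receptor, fell (5.77 and 5.87 against 6.53 and 6.63, a difference of -0.76, limma adjusted p = 0.00827). Its probe set was dim. SCARB2, a lysosomal membrane protein, fell as well (8.02 and 8.02 against 8.45 and 8.57, a difference of -0.49, adjusted p = 0.00566). Both calls were lost without shNC replicate 2, with adjusted p = 0.0654 for VLDLR (-0.71) and 0.0631 for SCARB2 (-0.43), when 0 genes of the list were called. LRP8, a receptor for apolipoprotein E, was higher by 0.27 without passing.

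Among the other sterol carriers and the cholesterol-esterifying enzymes, 2 of 21 rose and 2 fell, with a median of -0.06. Calls made up 19.0% of this list, against 6.41% of all probe sets. TMEM97, a sterol-regulated protein that binds NPC1, rose by 0.24 (11.54 and 11.54 against 11.30 and 11.29, limma adjusted p = 0.00369). SOAT1, which esterifies cholesterol for storage, rose by 0.37 (adjusted p = 0.00556). GRAMD1B and GRAMD1C, of the Aster family that moves cholesterol from the plasma membrane to the endoplasmic reticulum, fell by 0.84 and 0.73 (limma adjusted p = 0.00746 and 0.00581). Both were dim probe sets, with group means of 5.26 and 6.11 for GRAMD1B and 6.29 and 7.02 for GRAMD1C. Their calls were lost without shNC replicate 2, at -0.77 (adjusted p = 0.0593) and -0.68 (adjusted p = 0.057), and the list then held 2 calls against 7 without shDROSHA replicate 1.

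Enzymes that SREBPs switch on were among the genes that rose. Over the mevalonate, post-squalene and fatty acid lists, 12 of 30 measured genes rose and 0 fell in limma (15 higher and 0 lower at unadjusted p under 0.05), 40% against the 3.12% of all probe sets that were called higher. Calls in either direction were more frequent at high signal, from 0.833% in the lowest of 5 equal bins of signal to 15.6% in the highest. Most of the 12 that rose lay in the highest bin. Sterol enzymes were known to be higher in these arrays when the lists were written, so the counts are a description, and whether they differ from the regulators was not tested. In the mevalonate list 3 of 8 rose, with a median of 0.26. HMGCS1, which makes HMG-CoA for sterol synthesis, rose by 1.07 (means of 8.91 and 7.84, limma adjusted p = 1.78e-05). IDI1, the isopentenyl diphosphate isomerase, and ACAT2, a thiolase, rose by 0.83 and 0.41, while GGPS1, a branch enzyme of isoprenoid synthesis, was higher by 0.31 without passing. In the post-squalene list 4 of 10 rose, with a median of 0.25: MSMO1, a sterol methyl oxidase (0.84), DHCR7, a late reductase of the pathway (0.71), SQLE, squalene epoxidase (0.69), and CYP51A1, the lanosterol demethylase (0.53). SQLE was a dim probe set, at means of 6.31 and 5.62, and its call (limma adjusted p = 0.0201) was lost without shDROSHA replicate 2 (0.59, adjusted p = 0.068), shNC replicate 1 (0.73, adjusted p = 0.0749) or shNC replicate 2 (0.65, adjusted p = 0.0985).

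SREBP-1 targets of fatty acid synthesis held 5 of 12 that rose, with a median of 0.27. ELOVL6, an elongase of saturated fatty acids, rose by 0.66 (limma adjusted p = 3.91e-05), ACACA, acetyl-CoA carboxylase, by 0.31, ELOVL5, an elongase, by 0.30 and FADS2, a desaturase, by 0.25. The fifth was SCD, the stearoyl-CoA desaturase, at 0.28, which falls outside the naming rule and was named after its value was seen. Calls in this list numbered 2 without shNC replicate 1 and 3 without shNC replicate 2. ACACA was lost in both (0.27, adjusted p = 0.177, and 0.34, adjusted p = 0.0543), and FADS2 without shNC replicate 1 (0.25, adjusted p = 0.0651). SCD was lost without shDROSHA replicate 2 (0.25, adjusted p = 0.0619), shNC replicate 1 (0.32, adjusted p = 0.0596) or shNC replicate 2 (0.24, adjusted p = 0.158). INSIG1, at 0.80, was thus close in size to IDI1, MSMO1 and DHCR7, which were among the largest rises of the 3 enzyme lists. Over the 30 measured genes of those lists the median was 0.26, and 18 were not called. The SREBF genes that encode the activators were higher by 0.13 and 0.23 without passing.

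Genes of the opposing arm, oxysterol receptors and cholesterol export, held 0 that rose and 2 that fell of 7 in limma. At unadjusted p under 0.05, 0 were higher and 2 lower, and the median was -0.17. The share called, 28.6%, rests on 2 genes and is read against 6.41% of all probe sets. ABCG1, which exports cholesterol to HDL, fell by 0.71 (5.61 and 5.28 against 5.97 and 6.34, limma adjusted p = 0.0368), beside ABCA1 above. The ABCG1 probe set was dim, and the filter at the lower quartile of signal removed it. The ABCG1 call was lost without shDROSHA replicate 2 (-0.54, adjusted p = 0.0927) and without shNC replicate 2 (-0.53, adjusted p = 0.26). That left 1 call in the list without any one of shDROSHA replicate 2, shNC replicate 1 and shNC replicate 2. LPCAT3, a phospholipid-remodelling enzyme, and ABCG5, a sterol exporter, differed by -0.17 and -0.39 without passing. ABCG5 was also a dim probe set.

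**Figure D3:**
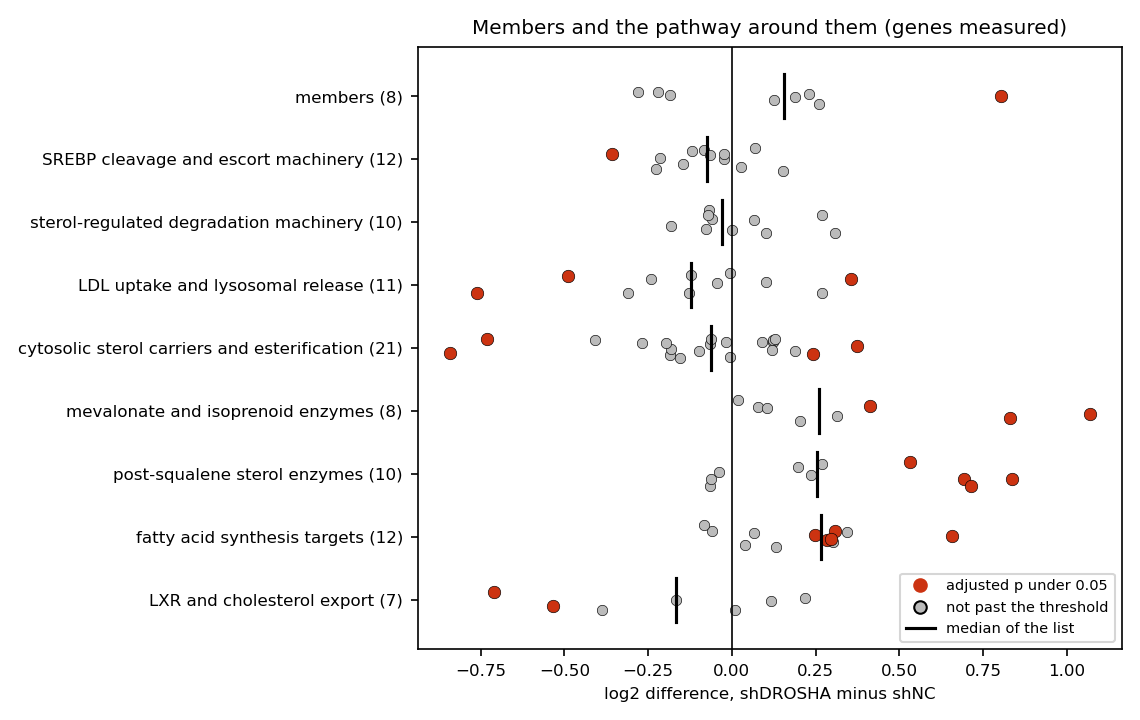
Log2 difference, shDROSHA minus shNC (horizontal axis), of the 8 members and of the genes of 8 related lists (rows, with the number measured), 1 point per gene, red where the adjusted p was under 0.05, with a bar at each median. The red points of the mevalonate, post-squalene and fatty acid lists all lie above 0, those of the export list below 0, and INSIG1 is the only red point among the members.

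The promoters of INSIG1, the member that rose, and of SREBF2 are shown because SREBPs act through short sterol regulatory elements near gene starts. Windows of 250 bases before to 50 bases after each start were taken from RefSeq (GRCh38.p14), which held all 8 members, INSIG2 with 2 windows. The motifs searched on both strands were TCACNCCAC, a form of the sterol regulatory element, ATTGG, the box of the cofactor NF-Y, GGGCGG, the Sp1 box, and CACGTG, the E-box that SREBPs also bind. The E-box was added after the sequences were seen. Matches are in capitals. The SREBF2 window is chr22:41832855-41833154 and that of INSIG1 chr7:155297628-155297927, both on the plus strand:
SREBF2: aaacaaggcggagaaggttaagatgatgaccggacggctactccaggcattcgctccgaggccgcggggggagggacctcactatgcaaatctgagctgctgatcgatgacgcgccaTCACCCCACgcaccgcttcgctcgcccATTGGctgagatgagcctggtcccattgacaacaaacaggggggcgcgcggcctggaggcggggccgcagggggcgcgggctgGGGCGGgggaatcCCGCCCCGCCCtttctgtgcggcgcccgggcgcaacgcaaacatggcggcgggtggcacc
INSIG1: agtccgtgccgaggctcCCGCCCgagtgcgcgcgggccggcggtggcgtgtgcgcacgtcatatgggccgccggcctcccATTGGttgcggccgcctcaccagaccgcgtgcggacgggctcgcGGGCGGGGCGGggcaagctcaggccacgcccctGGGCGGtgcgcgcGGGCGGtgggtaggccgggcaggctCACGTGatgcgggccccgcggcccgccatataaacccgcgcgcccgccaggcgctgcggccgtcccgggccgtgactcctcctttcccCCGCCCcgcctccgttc
SREBF2 had a match to the sterol regulatory element at -133 to -125 from its start and an NF-Y box at -106 to -102. That element was found in 1.13% of 35116 windows over all genes, and SREBF2 was the only member with it. INSIG1 had an NF-Y box at -170 to -166 and an E-box at -55 to -50, against 34.6% and 7.26% of windows. SCAP also had an E-box, at -58 to -53, STARD4 had a pair of NF-Y boxes, and Sp1 boxes, found in 45% of windows, were present in every member except MBTPS1. The member with the sterol regulatory element, SREBF2, did not pass the threshold, and INSIG1, which rose, had no match to TCACNCCAC in this window. A match is not a measured binding site, and neither other forms of the element nor sites outside these windows were searched.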

How the data were processed

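The authors deposited log2 probe set signals, which per the submitters' processing notes were made with RMA (background correction, quantile normalization and probe summary). Software version and genome build: not given in the sources used here. All 18603 probe sets of the 4 arrays were fitted with limma 3.58.1 in R 4.3.3 (lmFit, then eBayes with an intensity trend), with Benjamini-Hochberg adjustment over all of them. Of these, 15886 had 1 gene symbol, updated by Entrez identifier through RefSeq (GRCh38.p14), and 2717 had none. A gene with several probe sets was represented by its brightest. SEs and 95% intervals come from that fit, and the number of arrays limits the precision. No detection calls were used, so dim probe sets can reflect background.

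The members, lists, trended prior and named-gene rule were chosen with earlier results of these data known. Named were the members, DROSHA, up to 4 genes a list by smallest p, and the 3 genes nearest in profile to each called member. Lists are described by counts, with no set test. The fit was tested on simulated data. Same-numbered arrays did not deviate together (correlation -0.022), so the replicate number was not used as a block.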

Additional observations from a re-analysis of the deposited data

How the results depend on the processing

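The alternatives were a constant or robust prior variance, array weights, filters at the lower quartile and median of signal, quantile normalization again, median centring, the replicate block, adjusted p under 0.10, leaving out each array and keeping 1 probe set per gene. All were planned. A second probe set of each member was also planned as an alternative but could not be run, since no member had one, and background correction cannot be changed in RMA values. No member changed direction, though most of these settings leave the differences themselves unaltered. INSIG1 lost its call only with the constant prior (0.80, limma adjusted p = 0.172), as did DROSHA (-0.99, adjusted p = 0.0843). With the constant prior, 1 probe set was called in all, and 0 members and 0 genes of each list. At adjusted p under 0.10 the counts were 1824 over all probe sets, 3 for cleavage and escort and 6 for sterol carriers. The cleavage and escort count was 2 with either filter, quantile normalization, centring or 1 probe set per gene, and 3 with the replicate block. The replicate block gave 1391 calls over all probe sets and 1 member. The export list had 1 call with either filter, which left 4 of its 7 genes. Without 1 array the counts were 535 to 1949 over all probe sets, 0 to 4 for cleavage and escort, 0 to 1 for degradation, 0 to 3 for LDL uptake, 2 to 7 for carriers, 3 to 6 for post-squalene enzymes, 2 to 5 for fatty acid targets and 1 to 2 for export. Such a fit takes the spread of the group with a single array from the other group. Spread within groups depended on signal: the pooled SD was 0.213 for the 20% of probe sets with the lowest signal and 0.067 for the 20% with the highest, which a constant prior ignores. For other changes the cause was not tested.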
